A study of Mus musculus with 12 samples.

Results

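The genes measured were 7 that are commonly associated with the B-1 lineage, read in sorted antibody-secreting cells (ASCs): Il5ra, Ctla4, Cd9, Spn, Cd5, Bhlhe41 and Zbtb32. ASCs are plasma cells and their dividing precursors, the plasmablasts. The members are 7 of the 32285 genes in the files and were picked by symbol, with earlier results of these data known. They were read in barcodes with at least 1000 unique molecular identifiers (UMIs) outside immunoglobulin genes in which 1 light-chain V gene took at least 50% of the light-chain V UMIs. This left 8715 of 39949 filtered barcodes. The animals were Prdm1-eYFP reporter mice of both sexes on the C57BL/6 background, 3 months old and untreated as far as the labels say, and the organs were thymus, spleen and bone marrow. Cells of 3 mice were pooled for each sort, which took cells of any B220 level that were high for CD138, lacked IgD and CD90.2 and carried the reporter of Prdm1, which drives the ASC programme. Every combination of sex and organ was sequenced once for expression and once for receptors (VDJ), so none was replicated. The tissue comparisons ask how thymic ASCs differ from those of marrow and spleen.

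B-1 cells are self-renewing B cells of the body cavities that give rise to much of the natural IgM of serum. Their receptors use a restricted set of V genes, of which Ighv11 and Ighv12 with Igkv14-126 and Igkv4-91 bind phosphatidylcholine, a membrane lipid. IL-5 acts on B-1 cells through Il5ra, the ligand-binding chain that pairs with the common beta chain Csf2rb. Ctla4 is an inhibitory receptor for CD80 and CD86. Cd9 is a tetraspanin, Spn the sialomucin CD43 and Cd5 a scavenger-type receptor that dampens antigen receptor signalling. Bhlhe41 and Zbtb32 are transcriptional repressors, the first needed for B-1a cells and the second a brake on memory and plasma cell responses.

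In GRCm38 with GENCODE M21, whose identifiers match those of the files, Ctla4 (ENSMUSG00000026011) spans chromosome 1 from 60887000 to 60915832 on the plus strand. The other genes lie on the minus strand. Il5ra (ENSMUSG00000005364) is on chromosome 6 from 106710357 to 106749037, Cd9 (ENSMUSG00000030342) from 125460266 to 125494791 and Bhlhe41 (ENSMUSG00000030256) from 145858243 to 145865558 on the same chromosome. Spn (ENSMUSG00000051457) is on chromosome 7 from 127132232 to 127137823 and Zbtb32 (ENSMUSG00000006310) from 30589681 to 30598909. Cd5 (ENSMUSG00000024669) is on chromosome 19 from 10717116 to 10739002. All are protein coding, and counts are per gene, with no exon or isoform told apart.

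Female marrow held 1238 of these barcodes and male marrow 1665. Female and male spleen held 3567 and 1850, female and male thymus 107 and 288. The median depth ran from 2035 to 4352 UMIs outside immunoglobulin genes over the libraries. IgM cells, those whose leading heavy constant gene was Ighm, made up 67.3% to 92.3%. Female spleen stood apart, with a median of 10.2% ribosomal protein UMIs against 1.93% to 3.86% in the other libraries. ASC markers were summed at 57213 to 108801 CPM (UMIs per 1000000 UMIs outside immunoglobulin genes), and none of the 7 was at 0. T cell markers summed to 6.7 to 13.3 CPM in marrow and spleen and to 79.3 and 28.6 CPM in female and male thymus, neutrophil genes to 508.9 and 1330.8 CPM in marrow and at most 0.1 CPM elsewhere. In the eosinophil list Epx was at 0 in all libraries and Siglecf at most at 0.352 CPM, while Prg2 reached 317 to 1870 CPM. Il5ra is also an eosinophil gene and Ctla4 a T cell gene. Xist and 4 Y-linked genes fitted the sex label of every expression library. The libraries shared 39 of 8675 barcode sequences, at most 11 between a pair.

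The VDJ labels went against the barcodes. Barcodes with the same label for sex and tissue in VDJ and expression libraries numbered 16, of which 3 had the same light-chain V gene. Between libraries of 1 tissue and opposite sex labels they numbered 4540, of which 4421 had the same light-chain V gene. Receptor sequences were therefore joined by barcode, tissue and identical heavy and light V genes, for 4333 barcodes, and are given under the expression library's label.

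The highest library was 1.78 to 3.77 times the lowest for the 5 members with over 1000 UMIs, and no tissue comparison passed the test for any of them. Sums over cells do not tell fewer positive cells from fewer UMIs per cell. Exact 95% Poisson intervals, which cover counting error only, are given in brackets. As a measure of free RNA, each gene was also read in barcodes of at most 100 UMIs. The plot of levels by library shows both. Those barcodes come from the same sorted libraries, so a level near theirs does not tell expression from free RNA.

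**Figure D1:**
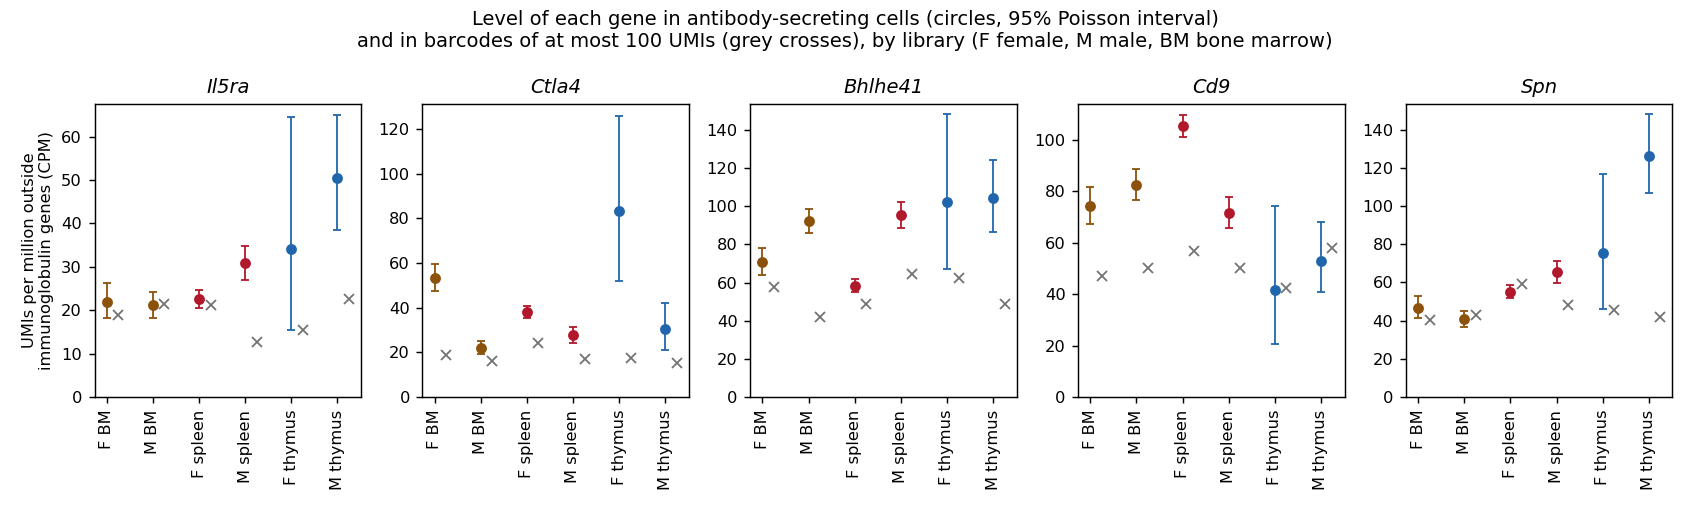
Level of Il5ra, Ctla4, Bhlhe41, Cd9 and Spn in CPM (y axis, from 0) in each of the 6 libraries (x axis), as circles with 95% Poisson intervals, with the level in barcodes of at most 100 UMIs as grey crosses. Male thymus is highest for Il5ra at 50.5 CPM and for Spn at 126.2 CPM, and the circles of both bone marrow libraries lie near the crosses for Il5ra.

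Il5ra stood at 22.0 CPM [18.3 to 26.2] in female and 21.1 CPM [18.2 to 24.3] in male bone marrow. It was at 22.6 CPM [20.6 to 24.7] in female and 30.8 CPM [27.1 to 34.9] in male spleen. Thymus gave 34.0 CPM [15.6 to 64.6] in the female and 50.5 CPM [38.5 to 65.0] in the male library. The marrow and female spleen intervals overlap, and male thymus lies above them. In barcodes of at most 100 UMIs it was at 12.7 to 22.7 CPM, so the marrow and female spleen levels were close to that of free RNA. In all, 1114 Il5ra UMIs fell in 798 barcodes.

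Ctla4 was measured at 53.1 CPM [47.3 to 59.5] in female and 22.1 CPM [19.2 to 25.3] in male bone marrow. Female spleen had 38.0 CPM [35.4 to 40.7] and male spleen 27.6 CPM [24.1 to 31.6]. Female thymus had 83.1 CPM [52.1 to 125.9] and male thymus 30.3 CPM [21.2 to 41.9]. The 3 female libraries were all above the 3 male ones. Barcodes of at most 100 UMIs gave 15.4 to 24.1 CPM.

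Cd9 ran from 41.6 CPM [20.8 to 74.4] in female and 53.0 CPM [40.7 to 67.8] in male thymus through 71.6 CPM [65.8 to 77.7] in male spleen and 74.2 CPM [67.3 to 81.7] in female marrow to 82.4 CPM [76.7 to 88.5] in male marrow. Female spleen was highest at 105.1 CPM [100.8 to 109.5]. Neighbours in this order overlap up to male marrow, and female spleen lies above all others. Both thymus levels were near the 42.2 and 58.0 CPM of the matching barcodes of at most 100 UMIs.

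Spn was lowest in bone marrow, at 40.9 CPM [36.9 to 45.2] in the male and 46.8 CPM [41.3 to 52.8] in the female library. It was at 55.2 CPM [52.1 to 58.5] in female and 65.4 CPM [59.9 to 71.2] in male spleen, and at 75.6 CPM [46.2 to 116.7] in female thymus. Male thymus had 126.2 CPM [106.8 to 148.0], above every library but female thymus, whose interval overlaps. Free RNA barcodes had 40.4 to 59.1 CPM, which covers the marrow and female spleen levels.

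Bhlhe41 varied least among the 5, from 58.4 CPM [55.2 to 61.8] in female spleen to 104.3 CPM [86.8 to 124.3] in male thymus. Female marrow had 70.9 CPM [64.1 to 78.2], male marrow 92.2 CPM [86.2 to 98.6], male spleen 95.4 CPM [88.7 to 102.4] and female thymus 102.0 CPM [67.2 to 148.5]. The last 4 in order did not differ beyond counting error. Barcodes of at most 100 UMIs had 42.2 to 64.8 CPM.

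Zbtb32 and Cd5 were close to undetected. Zbtb32 had 31 UMIs in 25 barcodes of the 8715 and Cd5 15 UMIs in 12 barcodes. By library, Zbtb32 UMIs numbered 2 in female and 3 in male marrow, 15 and 6 for the spleens, 0 and 5 for the thymuses. For Cd5 the libraries in that order held 0, 1, 10, 3, 1 and 0 UMIs, the 3 of male spleen being in 1 barcode. All 15 UMIs were in IgM cells, which made up 7085 of the 8715 barcodes, so no preference for a class is read from them. In the deepest library, female spleen, the levels were 0.705 CPM [0.394 to 1.16] for Zbtb32 and 0.470 CPM [0.225 to 0.864] for Cd5. A count of 0 in female marrow allows up to 0.528 CPM of Cd5, taking 3 UMIs as the limit that a count of 0 allows, here and below where no interval is given.

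The share of cells with a UMI, with each cell thinned to 1000 UMIs, was 2.88% for Il5ra, 3.9% for Ctla4, 6.12% for Cd9, 5.91% for Spn and 8.09% for Bhlhe41. Without thinning the shares were 9.16%, 12.1%, 28.1%, 21.1% and 28.5%, at a median depth of 3576 UMIs. In 79 barcodes with at least 5 UMIs of the macrophage genes C1qa, C1qb and C1qc (median 1866 UMIs), the thinned shares of these genes in the same order were 1.27% (exact 95% binomial interval 0.032% to 6.85%), 3.80%, 5.06%, 1.27% and 6.33%. These 79 barcodes were not screened against the ASC rule, so ASCs can be among them and they are not a clean background. At this number of cells the shares in ASCs could not be separated from theirs, and are not read as shares of expressing cells. Among the thinned cells 76.0% had no UMI of any member and 2.79% had UMIs of at least 2.

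Tissue and sex were tested with edgeR's quasi-likelihood test on the 6 library sums in 1 additive model. The tissue comparisons share libraries, and the labels do not say if 1 set of mice gave all organs of a sex, so the p-values treat as independent libraries that may not be. Of 5 members tested (Zbtb32 and Cd5 fell under the low-count filter), 0 passed an adjusted p of 0.05 between thymus and bone marrow, where 0.765% of 11239 genes did. The unadjusted p was under 0.05 for 3 of them. None passed between thymus and spleen (background 0.632%; 1 with unadjusted p under 0.05) or between spleen and bone marrow (background 0.436%; 0 with unadjusted p under 0.05). DESeq2 called 0 members in each tissue comparison.

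For thymus against bone marrow the log2 differences were 1.02 ± 0.32 (SE) for Spn (edgeR adjusted p = 0.22), 0.81 ± 0.32 for Il5ra (0.46) and -0.88 ± 0.35 for Cd9 (0.46). The Spn difference was 1.05 without female spleen (edgeR adjusted p = 0.0032), 1.04 without male spleen (0.0036), 1.40 without female thymus (0.04) and 1.11 in non-cycling barcodes of all libraries (0.025). It was 0.674 without male marrow, 0.338 without male thymus and 0.365 without barcodes holding UMIs of other cell types, none past the threshold. That last filter left 1761 of 8715 barcodes. It counts Prg2, which was at 317 CPM or more in every library while the other eosinophil-list genes were at most at 0.528 CPM. It is therefore not read as a filter for purity. With Prg2 not counted, over 6975 barcodes, the difference was 0.926 (edgeR adjusted p = 0.55). For Cd9 it was -0.93 without female spleen (0.031) and -0.95 without male spleen (0.036), and -0.60 without female thymus and -1.50 without male thymus, neither past the threshold. Il5ra differed by 0.297 without male thymus (0.85). Against spleen, thymus differed by -1.08 ± 0.35 for Cd9 (edgeR adjusted p = 0.28), by -1.65 (0.00053) without male spleen, by -0.56 (1) without female spleen, by -1.67 (0.12) without male thymus and by -1.83 (0.21) without barcodes holding UMIs of other cell types. Without male thymus Spn was at -0.136 against spleen, a change of sign. Which members passed changed with the libraries and barcodes in the fit. The full fit has 2 residual degrees of freedom, and leaving out a library lowers that number. For Spn without 1 or the other spleen library, the adjusted p moved while the difference hardly did, and the reason was not tested. Genes on the marker lists of other cell types moved with tissue. Of the T cell genes 1 of 4 tested, Trbc2, was higher in thymus than in marrow and spleen, at 52.9 CPM in female and 10.1 CPM in male thymus against at most 0.505 CPM elsewhere. Against marrow, thymus was lower for Prg2 (-2.65 ± 0.47, edgeR adjusted p = 0.0015), for 5 of 5 neutrophil genes (0 by DESeq2) and for 1 of 4 macrophage genes, Lyz2 (-4.33 ± 0.58, 2.4e-05). The other macrophage-list genes were at low levels. C1qb was at 3.34 and 3.69 CPM in male and female marrow and at 4.21 and 11.3 CPM in male and female thymus. Female thymus held 264621 UMIs outside immunoglobulin genes, so its C1qb level rests on few UMIs. C1qa, C1qc, Adgre1 and Csf1r were lower in each thymus library than in marrow of the same sex. Against spleen 0 of 5 neutrophil, 0 of 4 macrophage and 0 of 1 eosinophil genes passed in edgeR, of which 0, 1 and 1 had an unadjusted p under 0.05, and DESeq2 called 0, 0 and 1. The part of these genes in the tissue differences was not tested.

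Ctla4 was lower in male than in female libraries, the only member of the 5 to pass, where 0.427% of all genes did. The edgeR log2 difference was -1.17 ± 0.23 (SE; adjusted p = 0.0086), a level 2.24-fold higher in females, with the same direction in each of the 3 tissues. DESeq2 gave -1.21 with an adjusted p of 0.13. Without either bone marrow library the difference was -1.09 with an adjusted p of 1, without V gene pairs of 40 or more IgM barcodes -0.996 (0.12), without the 6% of barcodes of highest depth -1.27 (0.34), and without barcodes holding UMIs of other cell types -1.35 (0.26). With Prg2 left out of that last filter it was -1.11 (0.06). Since each library is 1 pool, sex and pool cannot be told apart. T cell markers were at 12.5 CPM in female against 13.3 CPM in male marrow, at 8.7 against 6.7 CPM in spleen and at 79.3 against 28.6 CPM in thymus, 0 of 4 tested being called by edgeR or DESeq2 between the sexes and 0 having an unadjusted edgeR p under 0.05. Thymic Trbc2 (52.9 CPM in the female, 10.1 CPM in the male library) and Trbc1 (11.3 and 6.73 CPM) were higher in the female library, as Ctla4 was. Cd3d, Cd3e, Cd8a and Lck were at 3.78 CPM in the female library and at 0, 2.52, 2.52 and 3.36 CPM in the male one. Cd3g and Trac were at 0 CPM in the female and 1.68 CPM in the male library. A count of 0 allows 11.3 CPM in female thymus, so no direction is read from these low levels. Over all libraries Cd3e was at most at 3.78 CPM and Foxp3 at most at 0.379 CPM in any library. Of 5 neutrophil genes, which were near 0 CPM outside marrow, 2 were higher and 1 lower in male libraries by edgeR, and 0 were called by DESeq2. Their part in the difference was not tested.

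Antibody class separated 4 of the 5 members. Il5ra and Ctla4 were lower and Spn higher in IgG than in IgM cells, and Cd9 was lower in IgA than in IgM cells, while Bhlhe41 did not pass in any class comparison. Classes were compared within libraries, over 16 sums of library and class, with female thymus left out for IgA (18 barcodes) and IgG (17 barcodes). Of the 5 members 3 passed for IgG against IgM, where 11.6% of 9366 genes did, 3 for IgG against IgA (10.1%) and 1 for IgA against IgM (7.99%). By DESeq2 these counts were 2, 2 and 1. Neutrophil genes moved with class: 5 of 5 tested were lower in IgG and 5 of 5 in IgA than in IgM cells by edgeR, and 0 by DESeq2. Outside marrow these genes summed to at most 0.1 CPM, so their calls rest on the marrow libraries. Lyz2, the 1 macrophage gene tested, was also lower by edgeR (-1.90 in IgG and -1.78 in IgA) and not called by DESeq2. Prg2, the 1 eosinophil-list gene tested, was lower in IgG (-0.593 ± 0.15, edgeR adjusted p = 0.0059; not called by DESeq2) and in IgA than in IgM cells (-1.25 ± 0.16, 1.5e-06; called by DESeq2), and higher in IgG than in IgA cells (0.652 ± 0.16, 0.0088). Their part in the class differences was not tested. Without barcodes holding UMIs of other cell types, Prg2 not counted, the IgG minus IgM differences were -2.01 for Il5ra (edgeR adjusted p = 5.7e-06), -0.80 for Ctla4 (0.015) and 0.75 for Spn (0.00011).

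**Figure D2:**
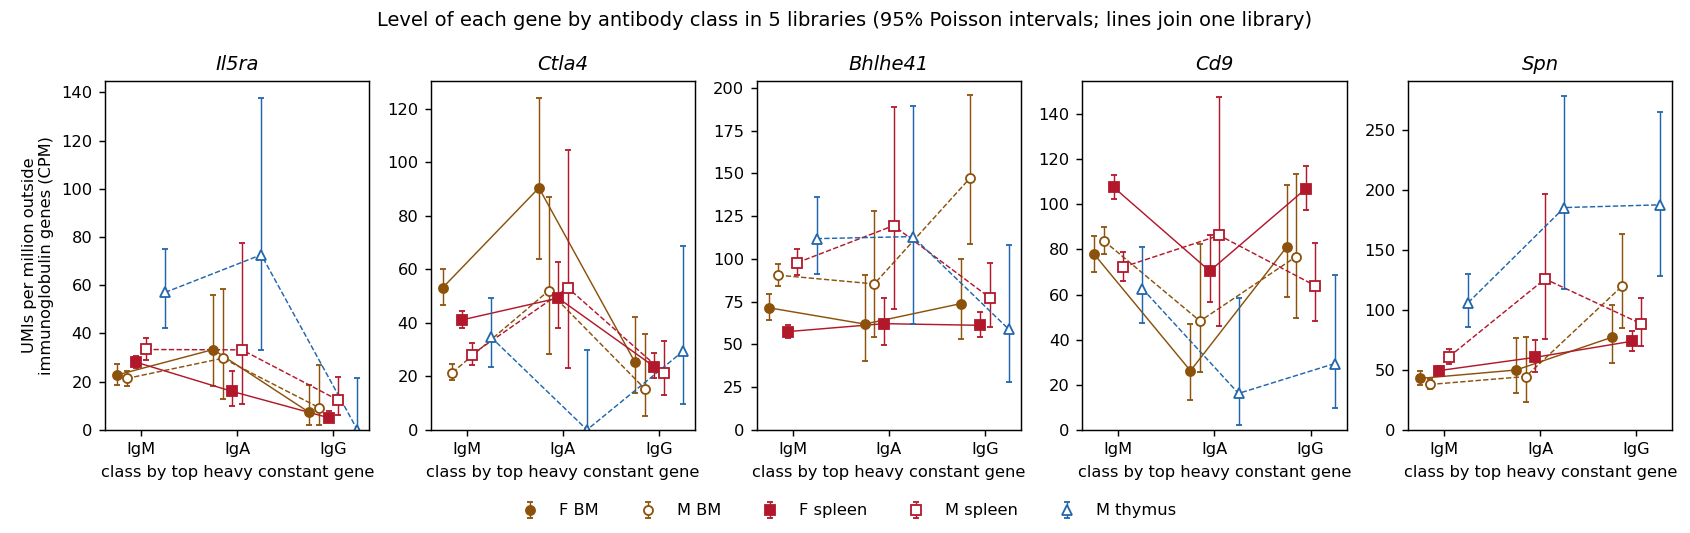
Levels of the 5 members in CPM (y axis, from 0) by antibody class (x axis) in 5 libraries, with 95% Poisson intervals. Filled symbols and solid lines are female, open symbols and dashed lines male. Il5ra falls to between 0 and 12.3 CPM in IgG cells of every library shown.

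Il5ra stood in IgM cells at 22.7 CPM (female) and 21.3 CPM (male) in marrow, 28.0 and 33.3 CPM in spleen and 57.0 CPM in male thymus. IgG cells of the same libraries had 7.20, 9.22, 5.04, 12.3 and 0 CPM, the last from 35 barcodes, where a count of 0 allows 17.6 CPM. IgG levels were below those in barcodes of at most 100 UMIs, but in male spleen by less than counting error, at 12.3 CPM [6.15 to 22.05] against 12.7 CPM. Every IgG level was below the IgM level of its library. The log2 difference was -2.07 ± 0.25 (edgeR adjusted p = 2.5e-07), 4.20-fold lower. IgA cells, at 33.3, 29.7, 15.9, 33.2 and 72.6 CPM, did not separate from IgM cells (-0.09 ± 0.24, 95% interval -0.57 to 0.39). IgG differed from IgA by -1.98 ± 0.35 on the log2 scale (3.94-fold lower, edgeR adjusted p = 0.00021). The call was lost with a light-chain V share of at least 80% (edgeR adjusted p = 0.11) and without barcodes holding UMIs of other cell types (0.19). Over 18 alternatives the difference itself ran from -2.22 to -1.76. Over all libraries Ighg1, Ighg2b and Ighg2c cells had 6.09, 4.52 and 5.36 CPM and Ighg3 cells 12.1 CPM [6.64 to 20.4], against 27.6 CPM in Ighm and 24.5 CPM in Igha cells.

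IgM cells had Ctla4 levels of 53.1 CPM (female) and 21.4 CPM (male) in marrow, 41.1 and 28.1 CPM in spleen and 34.7 CPM in male thymus. In IgG cells it was at 25.2, 15.4, 23.6, 21.3 and 29.4 CPM, below IgM in 5 of 5 libraries. The difference of -0.71 ± 0.18 (log2; edgeR adjusted p = 0.0071) lost the call without female spleen (-0.68, adjusted p = 0.17), without barcodes holding UMIs of other cell types (-1.01, 0.097) and by DESeq2 (0.089). IgA cells had 90.4, 51.9, 49.2 and 53.1 CPM in marrow and spleen, each above IgM, and 0 UMIs in 26 male thymus barcodes, which allows 24.2 CPM. The IgA difference of 0.52 ± 0.19 missed the threshold (edgeR adjusted p = 0.10), passed without male thymus (0.60, adjusted p = 0.024) and with a light-chain V share of at least 80% (0.755, 0.03), and turned to -0.484 (0.94) without barcodes holding UMIs of other cell types. Between IgG and IgA the log2 difference was -1.23 ± 0.24 (edgeR adjusted p = 0.00066), with 4 of 5 libraries in that direction, and -0.52 (0.81) without barcodes holding UMIs of other cell types.

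Spn was higher in IgG cells in 5 of 5 libraries. IgM cells had 42.9 and 37.9 CPM in female and male marrow, 49.5 and 60.9 CPM in spleen and 106.2 CPM in male thymus. IgG cells had 77.4, 119.9, 73.9, 88.5 and 187.9 CPM. The log2 difference was 0.77 ± 0.12 (1.71-fold; edgeR adjusted p = 1.3e-05), and 0.26 (adjusted p = 0.82) among the 1761 barcodes without UMIs of other cell types. That filter counts Prg2 and removes most cells, and with Prg2 not counted, over 6975 barcodes, the Spn call stood. Why the difference was smaller under the full filter was not tested. IgA cells were at 49.95, 44.5, 60.6, 126.0 and 185.6 CPM (0.46 ± 0.16 against IgM, edgeR adjusted p = 0.063). That difference passed with barcodes of at least 500 UMIs (0.487, 0.04) and without barcodes holding UMIs of other cell types, Prg2 not counted (0.592, 0.037), and was -0.0108 (1) when that filter counted Prg2. Between IgG and IgA Spn differed by 0.31 ± 0.16 (edgeR adjusted p = 0.27), and by 0.583 (0.049) without the 6% of barcodes of highest depth.

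Cd9 was the 1 member that passed between IgA and IgM. IgM cells had 77.8 and 83.8 CPM in female and male marrow, 107.6 and 72.2 CPM in spleen and 62.6 CPM in male thymus, and IgA cells 26.2, 48.2, 70.4, 86.2 and 16.1 CPM. IgA was lower in 4 of 5 libraries, male spleen being the exception with 13 UMIs in 36 barcodes. The log2 difference was -0.75 ± 0.16 (1.68-fold; edgeR adjusted p = 0.0024), and -1.59 (0.045) without barcodes holding UMIs of other cell types. B cell markers moved with it, 3 of 4 tested being lower in IgA cells, with Bank1 at -1.90 and Ms4a1 at -1.09. Their part in the Cd9 difference was not tested. IgG cells, at 81.0, 76.8, 106.9, 63.9 and 29.4 CPM, differed from IgM by -0.11 ± 0.12, and from IgA by 0.65 ± 0.18 (edgeR adjusted p = 0.016), a call lost without female marrow (adjusted p = 0.079), without female spleen (0.2), by DESeq2 (0.057) and without barcodes holding UMIs of other cell types (1.58, 0.063). It was 1.08 (0.0026) with a heavy constant share of at least 80%, and over 18 alternatives it ran from 0.529 to 1.58.

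Bhlhe41 differed by 0.01 ± 0.12 (log2) between IgG and IgM (95% interval -0.22 to 0.24) and by 0.01 ± 0.15 between IgA and IgM (-0.28 to 0.30). Its IgM levels were 71.4 and 90.4 CPM in marrow, 57.4 and 97.8 CPM in spleen and 111.8 CPM in male thymus, and its IgG levels 73.8, 147.5, 61.1, 77.3 and 58.7 CPM.

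Whether the IgA minus IgM difference varied by tissue was tested as an interaction, in which male thymus was the 1 thymus library with an IgA sum, so thymus and that library cannot be told apart. No member of 5 passed for spleen against marrow (2 with unadjusted p under 0.05) or thymus against marrow (1 with unadjusted p under 0.05). In both, 0.0961% of genes passed with edgeR, and DESeq2 called 0 members. The largest difference, for Ctla4 in thymus, rests on the 0 UMIs in male thymus IgA cells and has no fold that can be read.

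Cycling genes moved with class: 10 of the 12 in the list (Mki67, Top2a, Cdk1 and others) were higher in IgG than in IgM cells by edgeR and 4 by DESeq2 (median log2 difference 0.81, against 0.01 over all genes, 11.6% of which were called). The class comparison was therefore repeated in cells with under 3 UMIs of that list, chosen after seeing the data. There IgG differed from IgM by -2.05 for Il5ra (edgeR adjusted p = 2.8e-08), -0.78 for Ctla4 (0.001) and 0.80 for Spn (5.4e-06), and IgA from IgM by -0.82 for Cd9 (0.0015). All 4 stayed past the threshold in cells under that cut. The cut is not scaled to depth, so cycling cells of low depth can remain among them.

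Cells with at least 3 UMIs of the cycling list, 7.81% to 15.8% of each library, were then set against the others in 5 libraries and, for the other cells, female thymus too. The cut is not scaled to depth, and cycling barcodes were deeper in the 5 libraries compared. In female spleen 565 of them held 5728671 UMIs outside immunoglobulin genes and the 3002 others 15558499. Cycling state and depth were not told apart. Of the 5 members tested in every comparison 3 passed, against a background of 44.3% of 10081 genes, so a call is common in this comparison. Il5ra was lower in cycling cells, at 8.89 against 24.5 CPM in female marrow, 11.5 against 22.5 CPM in male marrow, 9.25 against 27.4 CPM in female spleen, 18.3 against 33.3 CPM in male spleen and 12.2 against 60.4 CPM in male thymus. That is a log2 difference of -1.36 ± 0.16 (edgeR adjusted p = 5.9e-07). Ctla4 differed by -0.845 ± 0.13 on the log2 scale (edgeR adjusted p = 1.2e-05), in the 5 libraries compared, by -1.33 with at least 5 cycling UMIs and by -1.89 without barcodes holding UMIs of other cell types. Female thymus, with 12 cycling barcodes and outside the comparison, ran the other way: Il5ra was at 79.3 CPM in cycling (3 UMIs) against 26.5 CPM in other cells, and Ctla4 at 158.5 CPM (6 UMIs) against 70.6 CPM.

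Spn was higher in cycling cells, at 91.1 against 38.5 CPM in female marrow, 78.3 against 35.3 CPM in male marrow, 75.9 against 47.6 CPM in female spleen, 104.3 against 57.6 CPM in male spleen and 215.6 against 102.9 CPM in male thymus (0.91 ± 0.095, edgeR adjusted p = 1e-07), and by 0.506 (0.032) without barcodes holding UMIs of other cell types. Female thymus again ran the other way, with 52.8 CPM in cycling (2 UMIs) against 79.4 CPM in other cells. Zbtb32 had 1, 2, 9, 3 and 4 UMIs in cycling against 1, 1, 6, 3 and 1 UMIs in other cells of the same libraries, or 1.11 to 16.3 CPM against 0.124 to 1.06 CPM. It passed the low-count filter in this comparison alone, where the cycling sums are the higher ones, so its levels are given with no test. Cd9 differed by 0.24 ± 0.097 (edgeR adjusted p = 0.052), 0.315 (0.022) without male spleen, 0.304 (0.015) with at least 5 cycling UMIs and 0.244 (0.047) with barcodes of at least 500 UMIs, and turned to -0.59 (0.019) without the 6% of barcodes of highest depth. Bhlhe41 differed by 0.02 ± 0.11. Genes on the marker lists of other cell types moved with cycling. Neutrophil genes, 5 of 5 by edgeR and 0 by DESeq2, were higher in cycling cells, as was 1 of 2 macrophage genes, C1qb (1.10 ± 0.26, edgeR adjusted p = 0.0017; 0 by DESeq2). The neutrophil calls again rest on the marrow libraries. Prg2 was lower (-1.81 ± 0.12, edgeR adjusted p = 6.1e-11; also called by DESeq2), as was 1 of 2 T cell genes, Cd3g (-0.835 ± 0.32, 0.041; 0 by DESeq2). Of 4 B cell genes 2 were lower, Ms4a1 among them (-0.538 ± 0.11, edgeR adjusted p = 0.00035), and 1 higher. Their part in the differences of the members was not tested. With the filter on other cell types, Prg2 not counted, the differences were -1.41 for Il5ra, -0.98 for Ctla4 and 0.79 for Spn, all past the threshold.

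**Figure D3:**
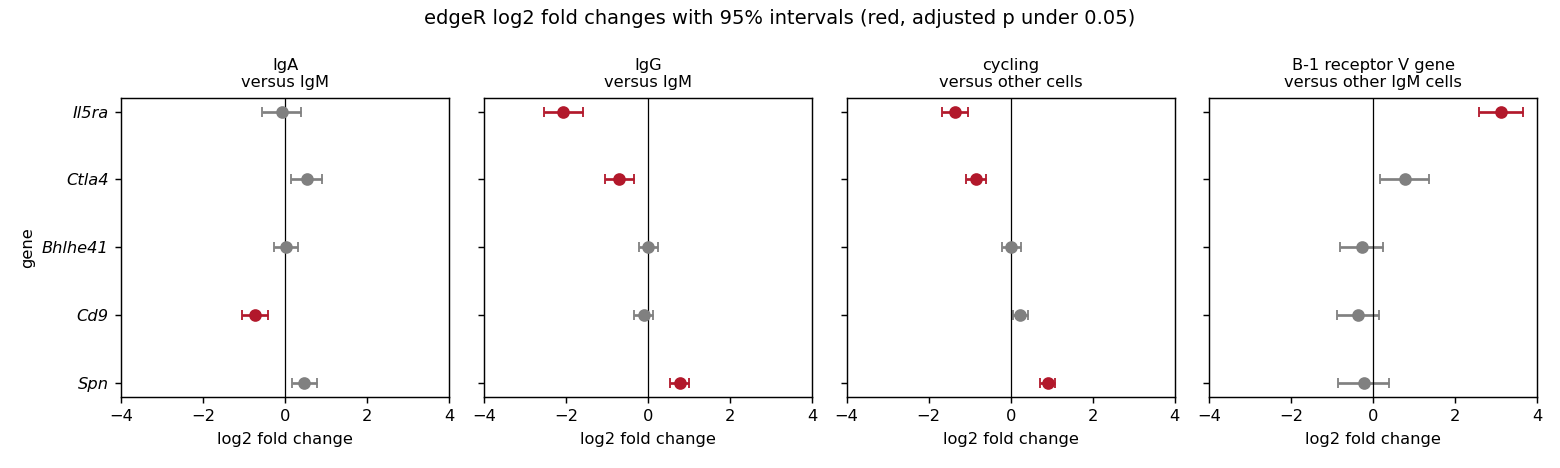
edgeR log2 fold changes (x axis) of 5 members (y axis) with approximate 95% intervals in 4 comparisons, red where the adjusted p is under 0.05. Il5ra is the member furthest from 0 in 3 of them, from -2.07 in IgG against IgM to 3.12 in cells with a B-1 receptor V gene, and Bhlhe41 lies near 0 in the class and cycling comparisons.

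Il5ra was several-fold higher in IgM cells with receptor V genes typical of B-1 cells. IgM cells whose leading heavy V gene was Ighv11-1, Ighv11-2 or Ighv12-3 were compared with other IgM cells in the 3 libraries with at least 20 of them: female marrow (59 barcodes), male marrow (40) and female spleen (43). Il5ra was at 149.9 CPM [107.6 to 203.4] in these cells against 14.9 CPM [11.5 to 18.95] in other IgM cells of female marrow. In male marrow it was at 298.4 CPM [223.5 to 390.3] against 15.5 CPM [12.97 to 18.4], and in female spleen at 99.2 CPM [62.9 to 148.9] against 27.0 CPM [24.4 to 29.7]. The intervals are apart in each library. The log2 difference was 3.12 ± 0.27 (8.68-fold; edgeR adjusted p = 1e-11), and 3.77 without female spleen, 2.98 without female marrow and 2.59 without male marrow. Male spleen, with 9 such barcodes and outside the fit, had 269.5 CPM [98.9 to 586.6] against 32.6 CPM. In marrow, other IgM cells were below the 18.95 and 21.4 CPM of barcodes with at most 100 UMIs.

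Il5ra was the 1 member of 5 that passed, where 1.69% of 9934 genes did. Ctla4 was at 36.6 against 54.2 CPM in female marrow, 50.7 against 20.8 CPM in male marrow and 120.8 against 39.9 CPM in female spleen, higher in 2 of 3 libraries (0.77 ± 0.31, edgeR adjusted p = 0.26). With 1 library left out this Ctla4 difference ran from 0.12 to 1.34. The log2 differences were -0.38 ± 0.26 for Cd9 (95% interval -0.89 to 0.13), -0.29 ± 0.26 for Bhlhe41 (-0.80 to 0.23) and -0.23 ± 0.32 for Spn (-0.85 to 0.38). Of the neutrophil genes, near 0 CPM in female spleen, 4 of 4 tested were lower by edgeR and 0 by DESeq2, as was 1 of 2 macrophage genes, Lyz2 (-4.50 ± 0.82, edgeR adjusted p = 0.00042; 0 by DESeq2). Of the T cell genes 1 of 3, Cd3g, was higher in these cells (2.37 ± 0.47, edgeR adjusted p = 0.0015; also called by DESeq2), and 1 of 12 cycling genes was lower. Their part in the Il5ra difference was not tested. With barcodes holding UMIs of other cell types left out, Prg2 not counted, Il5ra differed by 2.93 (edgeR adjusted p = 7.3e-11).

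Il5ra was then read in each heavy and light V gene pair with at least 40 IgM barcodes, 28 pairs in all, as a description chosen with levels in view. The median pair had 9.74 CPM and the quartiles were 6.11 and 16.1 CPM. These large pairs were low as a set, since all Ighm cells pooled over libraries were at 27.6 CPM. The 46 heavy V genes with at least 40 IgM barcodes had a median of 20.55 CPM, the highest being 9.1 times that. Ighv11-2 with Igkv14-126 led at 190 CPM over 133 barcodes, and Ighv1-55 with Igkv12-89 followed at 130 CPM over 93 barcodes. Cells of a pair can be 1 clone or several, so pairs are not replicates.

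**Figure D4:**
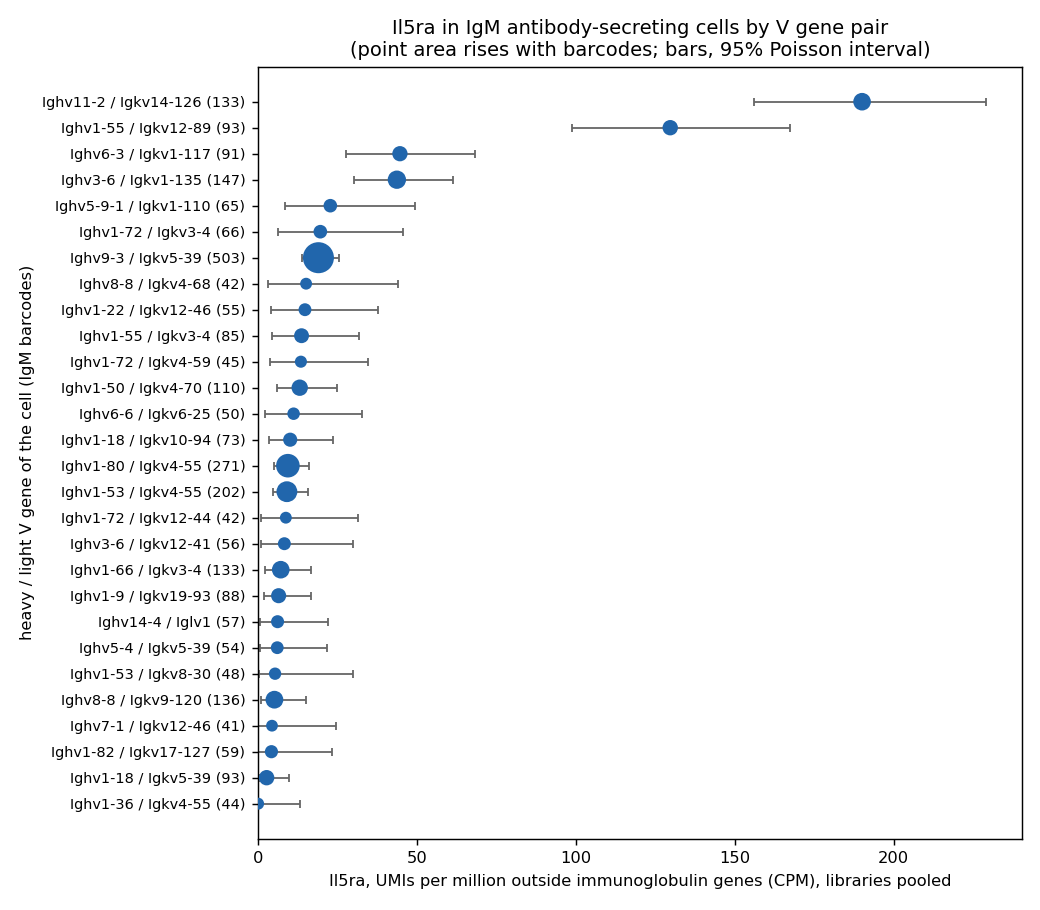
Il5ra in CPM (x axis, from 0) in IgM cells of each of 28 heavy and light V gene pairs with at least 40 barcodes (y axis, barcodes in brackets), libraries pooled, with 95% Poisson intervals. The pairs Ighv11-2 with Igkv14-126 at 190 CPM and Ighv1-55 with Igkv12-89 at 130 CPM stand above a median of 9.74 CPM.

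The heavy-chain CDR3, the junction of V, D and J that contacts antigen, is shown for the 2 most frequent sequences of each of these pairs, and for the 2 pairs with most barcodes, to let the families be compared. The sequences are cDNA, 5′ to 3′, from the deposited VDJ contigs, and capitals mark the bases at which the 2 sequences of a pair differ.
Ighv11-2 / Igkv14-126, first: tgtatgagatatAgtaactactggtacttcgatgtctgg
Ighv11-2 / Igkv14-126, second: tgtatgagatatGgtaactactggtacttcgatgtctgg
Ighv1-55 / Igkv12-89, first: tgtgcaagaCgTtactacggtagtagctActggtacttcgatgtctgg
Ighv1-55 / Igkv12-89, second: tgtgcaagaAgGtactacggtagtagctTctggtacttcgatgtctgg
Ighv1-80 / Igkv4-55, first: tgtgcaagaggGgcttactgg
Ighv1-80 / Igkv4-55, second: tgtgcaagaggAgcttactgg
Ighv9-3 / Igkv5-39, first: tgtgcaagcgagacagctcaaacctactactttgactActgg
Ighv9-3 / Igkv5-39, second: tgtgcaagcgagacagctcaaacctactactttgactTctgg

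In the Ighv11-2 family the 2 sequences, 39 bases long and differing at 1 base, made up 27 and 24 of 89 matched barcodes, and 11 different CDR3s were found. Each was seen in 4 libraries, both marrows and both spleens. Il5ra stood at 224.8 CPM [142.5 to 337.3] in cells with the first and 161.7 CPM [100.1 to 247.1] in cells with the second. The Ighv1-55 with Igkv12-89 family had 19 CDR3s among 49 matched barcodes, the first in 12 barcodes of 4 libraries with 84.0 CPM [36.3 to 165.6] of Il5ra. Its second, in 5 barcodes, was seen in male thymus alone.

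Of the 2 pairs with most barcodes, 1 was near the median pair and 1 above the upper quartile. The first CDR3 of Ighv1-80 with Igkv4-55, 21 bases long, occurred in 29 barcodes of 6 libraries with 0 Il5ra UMIs (0 CPM [0 to 25.3]). The whole pair was at 9.38 CPM over 271 barcodes. The largest pair, Ighv9-3 with Igkv5-39, had 488 of its 503 barcodes in male spleen and 1 CDR3 in 373 of 405 matched barcodes. Its Il5ra level was 19.0 CPM [13.7 to 25.6], above the upper quartile of the pairs. In male spleen it was at 20.2 CPM [14.6 to 27.2], below the 33.3 CPM of all IgM cells there. Median CDR3 length was 42 bases both in the 358 matched IgM barcodes with an Il5ra UMI and in the 2936 without one.

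By library, Ighv11-2 with Igkv14-126 had Il5ra at 143.6 CPM in female marrow (56 barcodes), 283.8 CPM in male marrow (38), 140.6 CPM in female spleen (29) and 371.1 CPM in male spleen (7). The 3 thymus barcodes of this pair held 0 UMIs. That is 0 CPM [0 to 1537] for 2 female and 0 CPM [0 to 1991] for 1 male barcode, too few to read a level. Ighv1-55 with Igkv12-89 had 125.9 CPM in female marrow (17 barcodes), 191.7 CPM in male marrow (16), 66.9 CPM in female spleen (33) and 314.6 CPM in male thymus (22). It had 0 UMIs (0 CPM [0 to 171.1]) in 4 male spleen barcodes and 1 UMI in 1 female thymus barcode. Both pairs were above the IgM level of the library wherever they had over 4 barcodes.

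Within Ighv1-55 the level differed by light chain, a split made after the values were seen. Among 313 IgM barcodes with Ighv1-55, those with Igkv12-89 had 129.7 CPM [98.7 to 167.3] and the 85 with Igkv3-4 13.7 CPM [4.44 to 31.9]. The 22 with Igkv5-39 had 15.6 CPM [1.89 to 56.3]. Of 136 barcodes with Ighv11-2, 133 paired with Igkv14-126. Of 17 with Ighv12-3, 14 paired with Igkv4-91, at 136.1 CPM [72.5 to 232.8].

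A smaller family was high in 2 members. Ighv8-12 with Igkv2-137, picked after its values were seen, had 24 barcodes, all in female spleen, with Il5ra at 246.7 CPM [172.8 to 341.6] and Ctla4 at 191.9 CPM [127.5 to 277.4] over all 24. An Il5ra UMI was found in 17 of them.

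The 2 leading pairs were 7.26% of IgM barcodes and 42.1% of IgM Il5ra UMIs in female marrow, and 3.52% and 38.4% in male marrow. In female spleen they were 2.37% and 7.32%, in male spleen 0.676% and 2.63%, and in male thymus 10.1% and 27.5%. The spread over pairs was narrower for the other members: the highest pair was at 19.5 times the median for Il5ra, 3.25 times for Ctla4, 2.39 times for Spn, 1.56 times for Bhlhe41 and 1.52 times for Cd9. Ctla4 ranged from 0 CPM (Ighv1-72 with Igkv4-59, 45 barcodes) to 78.4 CPM (Ighv1-72 with Igkv3-4, 66 barcodes). The first had 36 of its barcodes in male marrow and the second 55 in female marrow, where IgM cells as a whole were at 21.4 and 53.1 CPM. Spn ranged from 22.7 CPM (Ighv5-9-1 with Igkv1-110, 65 barcodes) to 115 CPM (Ighv1-36 with Igkv4-55, 44 barcodes). The first had 34 of its barcodes in female marrow and the second 29 in male spleen, where IgM cells as a whole were at 42.9 and 60.9 CPM.

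Few cells held UMIs of 2 members. In cells thinned to 1000 UMIs, with library and class held fixed, Il5ra and Ctla4 were found together in 17 cells where 10.6 would meet by their frequencies, a ratio of 1.61, and Cd9 with Spn in 48 against 30.8 (1.56). The remaining 8 ratios ran from 0.686 for Il5ra with Bhlhe41 to 1.48 for Ctla4 with Spn. Without cells of the Ighv11 and Ighv12 receptors the first ratio was 1.56 (14 against 8.99). At 2000 UMIs it was 1.27 and that of Cd9 with Spn 1.13. By library, Cd9 with Spn was at 1.74 and 1.73 in female and male spleen, 0.713 and 0.885 in the marrows and, from 0 and 3 cells, 0 and 3.64 in the thymuses. Il5ra with Ctla4 was at 2.14 (10 cells) and 2.47 (4 cells) in the spleens and 1.34 (3 cells) in female marrow, with 0 cells in male marrow and both thymuses. Counts this sparse are a description only.

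Other genes associated with B-1 cells were called in both directions. Of 14 in the list 8 were tested between classes, and in IgG against IgM 1 was higher and 3 lower (median log2 difference -0.19, against 0.01 over all genes), where 11.6% of all genes were called. Pdcd1lg2, which encodes the PD-1 ligand PD-L2, differed by -2.15 ± 0.27 on the log2 scale (edgeR adjusted p = 5.8e-07), and Nfatc1, a calcium-regulated transcription factor, by -0.73 ± 0.15 (0.00061). Siglecg, an inhibitory lectin of B-1 cells, was higher by 1.29 ± 0.14 (7.1e-08). In IgA against IgM, where 7.99% of all genes were called, 3 were lower, led by Fcrl5, an Fc receptor-like protein (-1.70 ± 0.40, edgeR adjusted p = 0.0057). Against other IgM cells, 0 of 10 tested passed in edgeR in cells with a B-1 receptor V gene, 4 had an unadjusted p under 0.05, and DESeq2 called 0 (median 0.21, against -0.06 over all genes).

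Of 14 genes of IL-5 receptor signalling 12 were tested between classes. In IgG against IgM 2 were lower and 2 higher: the kinase Lyn (-0.79 ± 0.11, edgeR adjusted p = 5.9e-06) and the feedback inhibitor Socs2 (-0.999 ± 0.16, 2e-05) were lower, and the kinase Btk was higher (0.51 ± 0.11, 0.0015). The list's median was 0.05, against 0.01 over all genes, 11.6% of which were called. In cycling cells 5 of 12 were lower and 1 higher (median -0.34, against -0.04), a share called close to the 44.3% of all genes, with the kinase Pim1 at -0.66 ± 0.077 (edgeR adjusted p = 4.9e-07). In cells with a B-1 receptor V gene 0 of 12 passed in edgeR, 2 had an unadjusted p under 0.05, and DESeq2 called 0.

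Of the 9 genes of the CD28 and CTLA-4 family and their ligands 5 were tested between classes. In IgG against IgM 2 were lower, the inhibitory receptor Btla (-2.05 ± 0.15, edgeR adjusted p = 8.6e-12) and Pdcd1lg2, and 0 higher, where 11.6% of all genes were called. In IgA against IgM Cd28, the activating counterpart of Ctla4, was higher (0.95 ± 0.13, edgeR adjusted p = 5.8e-06), with 2 higher and 3 lower in all (list median -0.94, against -0.015 over all genes, 7.99% of which were called). In cycling cells 5 of 7 were lower, Cd28 and Btla among them, and 1 was higher, Cd80, a ligand of Ctla4 (1.80 ± 0.23, edgeR adjusted p = 1.5e-06), against 44.3% of all genes called.

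The genes whose levels followed each member most closely were listed by Pearson's r of log2(CPM + 1) over the 16 sums of library and class, among 7900 genes. The sums share libraries and depth, and r is given as a description. For Il5ra they were Rnf146 (0.927), Agpat3 (0.905) and Agbl3 (0.903), and for Ctla4 Tnfaip3 (0.939), Ssbp3 (0.92) and Mknk2 (0.912). For Bhlhe41 they were Spg7 (0.938), Fem1b (0.924) and Recql (0.905), for Cd9 Hint3 (0.917), Ccdc115 (0.895) and Sin3b (0.892), and for Spn Srpk1 (0.851), St14 (0.848) and Gdap2 (0.833).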

How the data were processed

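Filtered and unfiltered matrices hold UMI counts per gene and barcode as deposited, with no normalization by the authors. The submitters' processing notes name Cell Ranger 6.0.2 and the headers of the unfiltered matrices Cell Ranger 4, with the build mm10. Receptor contigs came from the deposited filtered VDJ tables, whose UMI and read counts were made by the authors. Barcodes were kept and classed by their top light V and top heavy constant gene, and UMIs were summed per library, or per library and class, where at least 20 barcodes remained. Sums were fitted with edgeR 4.0.16 (R 4.3.3; TMM, filterByExpr, quasi-likelihood test, Benjamini-Hochberg adjustment over all genes, threshold 0.05), with DESeq2 1.42.0 as an alternative. Models had additive tissue and sex (6 sums, 2 residual degrees of freedom), or the library as a block. The block models had 16 sums with 8 residual degrees of freedom for class and 16 with 4 for the interaction with tissue. Cycling had 11 sums with 4 and receptor V genes 6 with 2. Intervals of fold changes are 1.96 SE either way and approximate. Scripts ran in Python 3.11.15 and were tested on simulated data. Members and lists were chosen with earlier results of these data known. The text names the 7 members, up to 3 called genes per list and comparison with the smallest adjusted p, and 3 similar genes per member with a mean of at least 10 CPM. Each library is 1 pool, so no p-value measures the spread between mice. P-values of the tissue and sex fit rest on the spread between libraries. Where the library was a block, they rest on how far the difference within a library varied between libraries. Doublets were not called. The 50% rule left out barcodes in which no light-chain V gene reached that share, and kept those in which a second one took up to 50%. The result of 1 further gene list, and of the other lists in comparisons not mentioned, is not reported here.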

Additional observations from a re-analysis of the deposited data

How the results depend on the processing

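Of 941 alternative fold changes of members, 838 kept their direction and side of the threshold, 19 lost and 15 gained a call, and 69 changed sign. Of these 69, 1 was past the threshold in either fit: Cd9 in cycling cells, at -0.586 without the 6% of barcodes with most UMIs. The cause was not tested. The others lay on the non-significant side in both fits, most of them for Bhlhe41. Counts of genes called moved more. Leaving out 1 library gave 16 to 353 for thymus against marrow (86 in the full fit), 33 to 934 for thymus against spleen (71), 11 to 158 for spleen against marrow (49), 10 to 205 for sex (48), 418 to 781 for IgA against IgM (748), 571 to 1138 for IgG against IgM (1091), 433 to 1000 for IgG against IgA (943), 0 to 29 and 8 to 41 for the interactions in spleen and thymus (9 each; 432 with unadjusted edgeR p under 0.05 at the 0, without female spleen), 3542 to 4649 for cycling (4469) and 64 to 209 for receptor V genes (168). In the order thymus against marrow, thymus against spleen, spleen against marrow and sex, no filter on low counts gave 131, 119, 103 and 101, a light-chain V share of at least 80% 52, 40, 15 and 20, the filter on other cell types' UMIs 10, 9, 0 (504 with unadjusted edgeR p under 0.05) and 6, that filter with Prg2 not counted 47, 37, 6 and 17, and leaving out the 6% of barcodes with most UMIs 21, 7, 4 and 6. DESeq2 gave 56 for thymus against marrow, 8 for spleen against marrow and 10 for sex. Non-cycling barcodes gave 114 for thymus against spleen, 111 for spleen against marrow and 106 for sex. At least 2000 UMIs gave 82 for spleen against marrow and 117 for sex. Without large receptor families there were 46 for thymus against spleen and 28 for sex, and with a ribosomal share of at least 2% 30 for sex. For IgA against IgM a heavy constant share of at least 80% gave 284, a light-chain V share of at least 80% 358, and the filters on other cell types 46 and, Prg2 not counted, 386. For IgG against IgM the first of these filters gave 106. For IgG against IgA the light-chain share gave 341, the filters 70 and 462, and leaving out large families 601. The spleen interaction had 2 with DESeq2, 2 with the heavy constant share, 21 with no filter, 21 in non-cycling barcodes and 3 with Prg2 not counted. The thymus interaction had 4, 28 and 3 with DESeq2, no filter and Prg2 not counted, and 29 without the deepest barcodes. Cycling gave 2228 with the other cell types filter and 1809 without the deepest barcodes, and receptor V genes 82 with DESeq2, 102 with Prg2 not counted and 302 without the deepest barcodes. The receptor V fit gave no value with a light-chain share of at least 80% or with the full filter on other cell types, both planned. The filter on other cell types with Prg2 not counted and those on ribosomal share, cycling and large families were chosen after seeing the data. The values that changed sign under other settings were these. Thymus against marrow gave -0.0466 for Bhlhe41. Spleen against marrow gave 0.203 and 0.0435 for Ctla4, -0.0348 for Spn. Sex gave -0.115, -0.153 and -0.0616 for Il5ra, -0.0292, -0.0492 and -0.151 for Spn. IgA against IgM gave 0.0707, 0.0493 and 0.305 for Il5ra, -0.484 for Ctla4, -0.000197, -0.00165, -0.0598, -0.0682, -0.0014, -0.153, -0.0166 and -0.0126 for Bhlhe41, -0.0108 for Spn. IgG against IgM gave -0.000838, -0.0258, -0.147, -0.0305, -0.0243, -0.0559, -0.0646, -0.0294 and -0.0829 for Bhlhe41, 0.0768 for Cd9. IgG against IgA gave 0.0427, 0.335, 0.00551, 0.0377 and 0.0884 for Bhlhe41. The spleen interaction gave -0.251 for Cd9, -0.396 and -0.0543 for Spn. The thymus interaction gave -0.00505 for Bhlhe41. Cycling gave -0.0288, -0.0376, -0.00397 and -0.127 for Bhlhe41. Receptor V genes gave 0.0192 for Spn. With 1 library left out, the ranges that crossed 0 were these. Thymus against marrow gave -0.0233 to 0.142 for Bhlhe41. Thymus against spleen gave -0.0104 to 0.703 for Il5ra, -0.136 to 0.922 for Spn. Spleen against marrow gave -0.326 to 0.2 for Ctla4, -0.373 to 0.706 for Cd9. Sex gave -0.0536 to 0.229 for Il5ra, -0.463 to 0.132 for Cd9, -0.228 to 0.236 for Spn. IgA against IgM gave -0.29 to 0.407 for Il5ra, -0.0249 to 0.048 for Bhlhe41. IgG against IgM gave -0.0947 to 0.066 for Bhlhe41. IgG against IgA gave -0.124 to 0.0659 for Bhlhe41. Cycling gave -0.154 to 0.136 for Bhlhe41. By replicate number, no paired analysis was possible because every library carries the number 1. Without such numbers, classes, cycling state and receptor V genes were compared within libraries, with the library as a block, and the tissue model held sex.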
